A study of Homo sapiens with 6 samples.

Results

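Both mature arms of the miR-140 and miR-455 hairpins were examined in A549 cells, a human lung adenocarcinoma line, in which METTL1 had been knocked down. They make up 4 of the 2588 mature miRNAs listed in the count tables. The 4 were selected on their names and host genes, with their ratios of m7G-RIP to total RNA already known, so those ratios are given below as a description and carry no test. METTL1 is a methyltransferase that places N7-methylguanosine (m7G) in RNA. All cells carried a lentiviral, doxycycline-inducible short hairpin RNA against METTL1 and were selected with puromycin, with no cloning step described. RNA was taken after 5 days with 200 ng/ml doxycycline. The total RNA group held 3 small RNA libraries of unselected RNA. The m7G-RIP group held 3 libraries of heat-denatured RNA pulled down with an anti-m7G antibody. Both groups had the same knockdown and no library from METTL1-proficient cells was analysed here. The values therefore compare pulldown with total RNA and do not say what METTL1 did. No pulldown with a control antibody was analysed, so nonspecific recovery was not measured.

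MicroRNAs are cut from a hairpin transcript by DROSHA and DICER, and either arm of the resulting duplex can be loaded into an Argonaute protein, where bases 2 to 8, the seed, pair with target mRNAs. The hairpins studied here are best known from cartilage. Both are expressed in chondrocytes, and miR-140 is known to be activated by SOX9, the transcription factor that drives cartilage formation. miR-140-5p is known to repress the aggrecan-cleaving protease ADAMTS5 and the deacetylase HDAC4, and loss of miR-140 disturbs skeletal growth in mice. The WWP2 gene that hosts MIR140 encodes a ubiquitin ligase, and COL27A1, the host of MIR455, encodes a fibrillar collagen chain made in cartilage.

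The mature sequences, from RefSeq on GRCh38.p14, are shown because each arm carries its own seed, in capitals, and its own G residues, the bases that the antibody's mark can sit on. All 4 were found in that reference.
hsa-miR-140-5p: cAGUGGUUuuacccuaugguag
hsa-miR-140-3p: uACCACAGgguagaaccacgg
hsa-miR-455-5p: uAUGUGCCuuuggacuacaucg
hsa-miR-455-3p: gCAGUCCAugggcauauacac
The 4 seeds differ from each other, and none was found in any other mature miRNA of the reference (0 for each member). The 5p arms have 22 bases and the 3p arms 21. Both arms of miR-140 hold 6 G and both arms of miR-455 hold 5. The longest run of G was 2 in each 5p arm and 3 in each 3p arm.

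The hairpins are shown with their mature arms in capitals, since the ratio between the arms is compared further on.
MIR140: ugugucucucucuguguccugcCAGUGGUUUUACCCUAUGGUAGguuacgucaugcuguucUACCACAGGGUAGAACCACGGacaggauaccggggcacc
MIR455: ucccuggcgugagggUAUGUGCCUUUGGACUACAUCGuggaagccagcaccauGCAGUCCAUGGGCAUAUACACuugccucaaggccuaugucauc
MIR140 lies on the + strand at chr16:69933081-69933180 (GRCh38), in intron 16 of 23 of the canonical WWP2 transcript, 1190 bases after the preceding exon and 789 bases before the next. MIR455 lies on the + strand at chr9:114209434-114209529, in intron 10 of 60 of the canonical COL27A1 transcript, 145 bases before the next exon. Each host is transcribed in the direction of its hairpin. No exon of any annotated host transcript overlapped a hairpin (0 for both), nor did any other annotated gene on either strand. The loop between the arms has 17 bases in MIR140 and 16 in MIR455. The tables hold 1 count per arm, so shifted 5′ ends of an arm could not be separated.

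The total RNA libraries held 9155690 to 10753443 counts and the m7G-RIP libraries 2649238 to 3106556. Levels are given as CPM, counts put on a common library size, on the TMM scale, which sets libraries level by the bulk of their miRNAs. A level of 3 counts, taken as the limit that a count of 0 allows, was 0.339 to 0.394 CPM in the total RNA libraries and from 0.803 to 0.942 CPM after pulldown. Of 6 miRNAs typical of epithelium, 4 were measured well enough to be tested, led by miR-200b-3p, and their sum was 528 to 560 CPM in total RNA. miR-141-3p and miR-205-5p did not exceed 6 and 3 counts in any total RNA library. Of 4 blood cell miRNAs, 3 were at 0 in every library. Mesenchymal miRNAs, which accompany chondrocytes and fibroblasts, summed to 6.05 to 12.7 CPM in total RNA over 5 names, with miR-145-5p at 0 throughout.

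In total RNA, miR-140-3p was the most abundant member, followed by miR-455-5p, miR-455-3p and miR-140-5p. This order held in each of the 3 libraries and the ranges of neighbouring members did not overlap. As the arms have nearly the same length, CPM needed no scaling by length. No standard of known amount was analysed here, so order and arm ratios describe counts and need not hold for molecules in the cell. Together the members made up 0.128% of all counts in total RNA and 0.0379% in m7G-RIP, as means of 3 libraries.

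hsa-miR-140-3p, the arm that dominates its hairpin, stood at 1266, 1187 and 1095 CPM in total RNA replicates 1, 2 and 3, from 11223, 9984 and 8325 counts. In m7G-RIP it stood at 262.7, 277.5 and 308.9 CPM, from 892, 884 and 1154 counts. Every m7G-RIP library lay below every total RNA library, and the replicates of a group differed by at most 1.18 times. The group means of 1183 ± 86.0 and 283 ± 23.6 CPM (SD, n = 3) gave a fitted log2 ratio of -2.06 (SE 0.12).

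hsa-miR-140-5p, the arm with the best described cartilage targets, was far scarcer than its partner. It stood at 38.1, 39.2 and 31.8 CPM in total RNA, from 338, 330 and 242 counts, and at 3.53, 8.79 and 9.64 CPM in m7G-RIP, from 12, 28 and 36 counts. m7G-RIP replicate 1 was the lowest library, and its exact 95% Poisson interval of 1.83 to 6.17 CPM overlapped that of replicate 2, from 5.84 to 12.7 CPM, but not that of replicate 3, from 6.75 to 13.3 CPM. The groups did not overlap. Means of 36.4 ± 4.0 and 7.32 ± 3.31 CPM (SD, n = 3) went with a log2 ratio of -2.31 (SE 0.41). Such intervals cover counting error within a library only, not the spread between libraries. As the reads carried no molecular identifiers, copies of a molecule could not be told from separate molecules.

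hsa-miR-455-5p, the more abundant arm of the hairpin in COL27A1, had the lowest ratio of the members. Its levels in total RNA were 245, 240.1 and 217 CPM, from 2175, 2020 and 1653 counts. In m7G-RIP they were 14.4, 5.96 and 12.8 CPM, from 49, 19 and 48 counts. The lowest total RNA library was 15.1 times the highest m7G-RIP library. With means of 234 ± 14.9 CPM and 11.1 ± 4.50 CPM (SD, n = 3), the log2 ratio was -4.39 (SE 0.31), or 21.0-fold lower in m7G-RIP. Within m7G-RIP, replicate 2 was low, with an interval of 3.59 to 9.31 CPM that did not reach the 10.7 CPM at the lower end of replicate 1.

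hsa-miR-455-3p was the least even member. It stood at 81.0, 125 and 76.1 CPM in total RNA, from 718, 1054 and 579 counts. In m7G-RIP it stood at 2.36, 22.0 and 12.0 CPM, from 8, 70 and 45 counts. Replicate 2 was the highest library of each group, and m7G-RIP replicates 1 and 2 differed 9.33-fold, with counting intervals of 1.02 to 4.64 and 17.1 to 27.8 CPM that lay far apart. The groups still did not overlap. Means of 94.1 ± 27.1 and 12.1 ± 9.81 CPM (SD, n = 3) went with a log2 ratio of -2.96 (SE 0.60), which was -3.85 without m7G-RIP replicate 2.

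In m7G-RIP, the mesenchymal and the muscle, liver and neuron miRNAs summed highest in replicate 2. In total RNA the lead of replicate 2 was small and not every name shared it. There, miR-199a-3p held 42, 26 and 0 counts in replicates 1, 2 and 3, miR-1-3p 88, 79 and 69, and miR-124-3p 0, 0 and 18. The 5 mesenchymal names summed to 10.9, 12.7 and 6.05 CPM in total RNA and to 4.12, 38.9 and 7.76 CPM in m7G-RIP replicates 1, 2 and 3. In m7G-RIP replicate 2 most of that sum came from miR-143-3p, at 102 counts against 14 and 29. The 5 muscle, liver and neuron names summed to 9.93, 11.8 and 11.4 CPM in total RNA and to 19.4, 117 and 1.07 CPM in m7G-RIP, where the muscle miRNAs miR-1-3p and miR-133a-3p held 260 and 114 counts of replicate 2. miR-206, another muscle miRNA, and miR-122-5p, the defining miRNA of liver, were at 0 in every library. The epithelial miRNAs also summed highest in m7G-RIP replicate 2, at 219, 283 and 217 CPM in replicates 1, 2 and 3. In total RNA they summed to 560, 543 and 528 CPM. Any tie between these sums and the level of miR-455-3p was not tested. With replicate 2 of both groups left out, the log2 ratios were -2.53 for miR-140-5p, -2.17 for miR-140-3p, -4.20 for miR-455-5p and -3.57 for miR-455-3p.

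**Figure D1:**
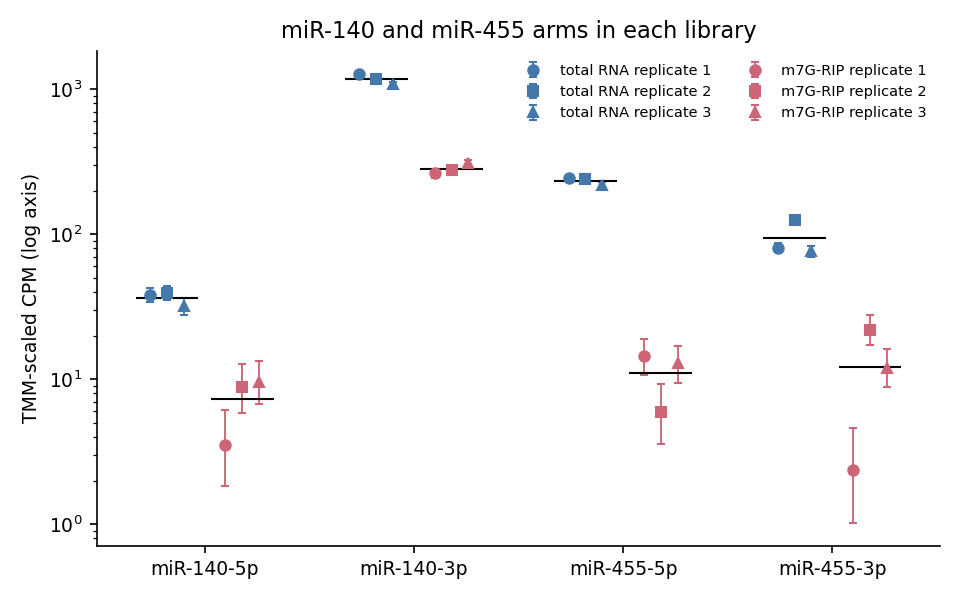
TMM-scaled CPM (log axis) of each arm in the 3 total RNA libraries (blue) and the 3 m7G-RIP libraries (red), with exact 95% Poisson intervals as bars and the group mean as a line. Every red point lies below every blue point of the same arm, and miR-455-3p spreads most within m7G-RIP, from 2.36 to 22.0 CPM.

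In m7G-RIP the order of the members was no longer distinct. miR-140-3p stayed far above the others, while miR-455-3p, miR-455-5p and miR-140-5p overlapped, at means of 12.1, 11.1 and 7.32 CPM. Across all listed miRNAs, miR-140-3p was at rank 55 by mean level in total RNA and at rank 100 in m7G-RIP. miR-455-5p moved from rank 111 to rank 329, miR-455-3p from 159 to 313 and miR-140-5p from 235 to 383.

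Setting m7G-RIP against total RNA compares how much of each arm was counted after pulldown, relative to the remaining miRNAs of a library. The groups were deposited as separate sets of counts, so a difference in preparation could not be told apart from recovery. By the edgeR quasi-likelihood test over 620 miRNAs, 29.2% were called depleted at an adjusted p under 0.05, and all 4 members were among them. The m7G-RIP libraries lay below every total RNA library for 36.5% of the miRNAs tested and for all 4 members. Since this contrast was known when the members were picked, nothing is read from these counts. The median log2 ratio was -2.63 over the 4 members and -0.074 over the miRNAs tested. Counted from the lowest log2 ratio, miR-455-5p was at place 27 of 620, miR-455-3p at place 71, miR-140-5p at place 101 and miR-140-3p at place 127. Scaling by library size alone raised the log2 ratios of the miRNAs tested by a median of 0.55, and the members then had -1.77 for miR-140-5p, -1.51 for miR-140-3p, -3.83 for miR-455-5p and -2.44 for miR-455-3p, all still negative.

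**Figure D2:**
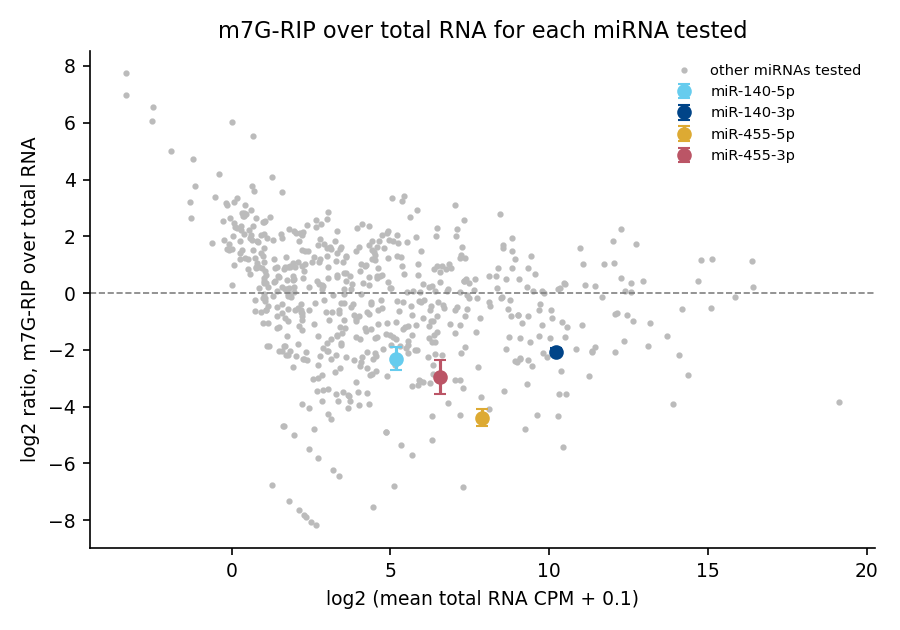
Log2 ratio of m7G-RIP over total RNA against log2 of the mean total RNA CPM plus 0.1 for each miRNA tested (grey), with the members in colour and their SE as bars. The members lie between -2.06 and -4.39 at levels from 36.4 to 1183 CPM in total RNA.

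The ratio between arms needs no scaling between libraries, because each ratio is taken within a library. In total RNA the 3p arm of MIR140 outnumbered the 5p arm 33.2, 30.3 and 34.4 times in replicates 1, 2 and 3, a log2 5p to 3p ratio of -5.03 ± 0.096 (SD, n = 3). After pulldown it did so 74.3, 31.6 and 32.1 times, which is -5.40 ± 0.71 on the same scale (SD, n = 3). Replicates 2 and 3 of m7G-RIP thus fell within the total RNA range, and replicate 1, with 12 counts of the 5p arm, lay outside it. The 5p arm made up 2.98% ± 0.194 of the hairpin's counts in total RNA and 2.47% ± 0.993 in m7G-RIP (SD, n = 3). Without m7G-RIP replicate 1 the mean log2 ratio in m7G-RIP was -4.99.

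In counts, MIR455 had the opposite arm ahead. Its 5p arm outnumbered the 3p arm 3.03, 1.92 and 2.85 times in total RNA, a log2 ratio of 1.35 ± 0.36 (SD, n = 3), so that 71.7% ± 5.17 of the hairpin's counts were 5p. In m7G-RIP the 5p to 3p ratio was 6.13, 0.271 and 1.07 in replicates 1, 2 and 3, out of only 57, 89 and 93 counts. The 5p arm was clearly ahead in replicate 1, clearly behind in replicate 2 and level in replicate 3. The mean log2 ratio of 0.28 ± 2.25 (SD, n = 3) therefore had no settled direction, and it was -0.89 without m7G-RIP replicate 1, 1.35 without replicate 2 and 0.37 without replicate 3. The range of m7G-RIP enclosed that of total RNA. At this depth and spread no change of the arm ratio of MIR455 is read, and none was tested.

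**Figure D3:**
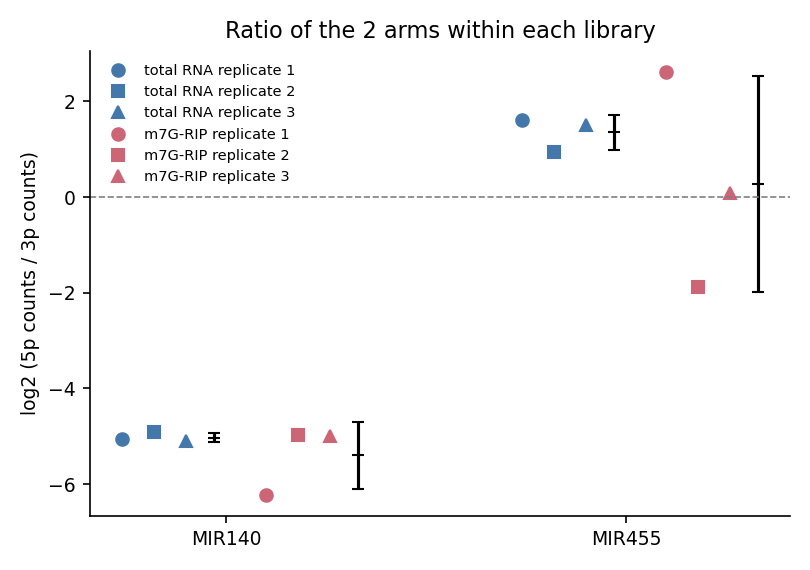
Log2 of 5p counts over 3p counts within each library for MIR140 and MIR455, with the mean and SD of 3 libraries in black beside the points. MIR140 stays between -5.10 and -4.92 in 5 libraries, with m7G-RIP replicate 1 at -6.22, while MIR455 runs from -1.88 to 2.61 within m7G-RIP.

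The arm shift, the fitted log2 ratio of m7G-RIP over total RNA of the 5p arm less that of the 3p arm, was -0.25 for miR-140 and -1.43 for miR-455. Both shifts were smaller than the SD of the within-library arm ratios, combined over the groups as the root of summed squares. That SD, a spread of single libraries and not the SE of a mean, was 0.71 for miR-140 and 2.28 for miR-455. Whether either shift differed from 0 was not tested. Among 139 hairpins with both arms tested, the median size of the shift regardless of sign was 1.58. By that size miR-140 was at place 14 from the smallest and miR-455 at place 67. Next to miR-140 in the signed order were miR-10a at -0.25 and miR-330 at -0.20, and next to miR-455 were miR-296 at -1.63 and let-7i at -1.35. Both arms were called depleted in 26 of the 139 hairpins (18.7%), miR-140 and miR-455 included. By the size of the log2 arm ratio in total RNA, miR-140 was at place 42 and miR-455 at place 107 from the most one-sided. The 5p arm was the higher in 66 of the 139.

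**Figure D4:**
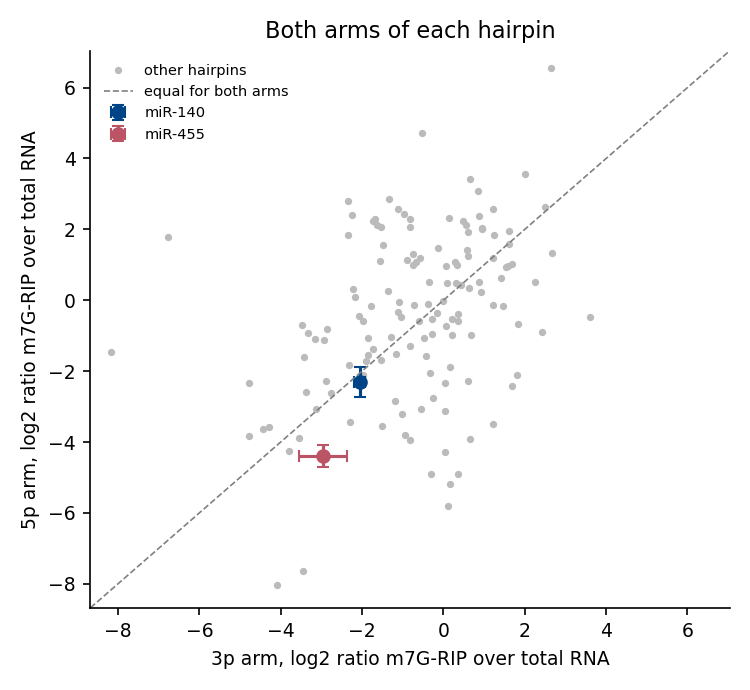
Log2 ratio of m7G-RIP over total RNA of the 5p arm against that of the 3p arm for 139 hairpins with both arms tested, with SE bars for the coloured hairpins and a dashed line where both arms are equal. miR-140 lies on the line within its SE, and miR-455 lies below it with both arms negative, by a shift smaller than its combined SD of 2.28.

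The number of G was compared because the antibody's mark is a methylated G. Of the miRNAs tested, 557 (89.8%) had a single mature sequence in the reference, with a median of 6 G. The 63 other miRNAs with 6 G had a median log2 ratio of -0.34, against -2.31 for miR-140-5p and -2.06 for miR-140-3p. Of these 63, 10 lay below miR-140-5p and 13 below miR-140-3p. The 81 others with 5 G had a median of -0.71, against -4.39 for miR-455-5p and -2.96 for miR-455-3p, with 4 and 10 of them lower. A run of GGG, read 5′ to 3′ on the miRNA itself, was present in miR-140-3p, miR-455-3p and 199 of the 557 (35.7%), which include those members. The median log2 ratio was 0.87 with such a run and -0.55 without. The median number of G also differed, at 8 with the run and 5 without, so the run and the number of G were not separated.

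**Figure D5:**
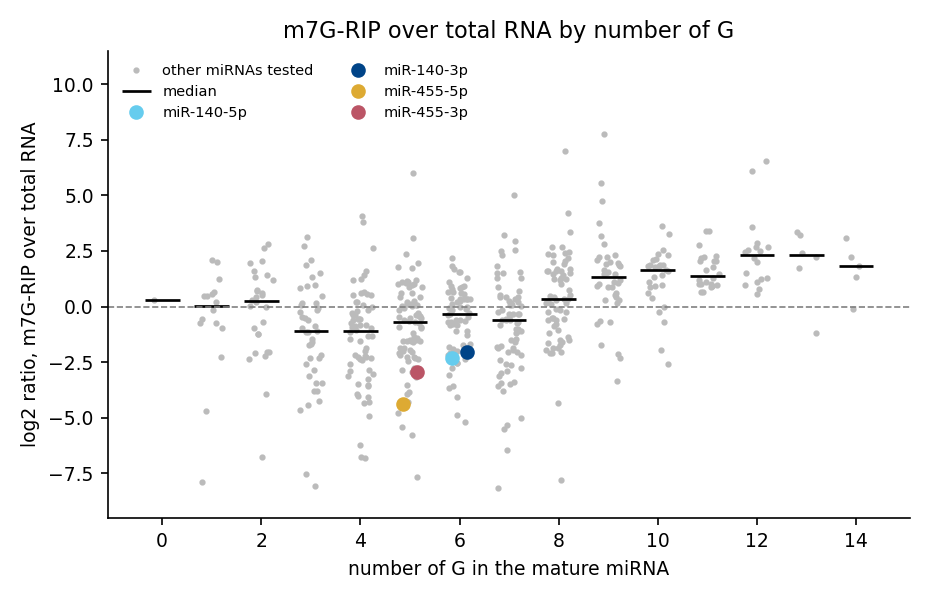
Log2 ratio of m7G-RIP over total RNA against the number of G in the mature miRNA for the 557 miRNAs with a sequence (grey, spread sideways to separate points), with the median of each number of G as a bar and the members in colour. All 4 members lie below the bar of their own number of G.

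Profiles over the 6 libraries were compared with those of 356 other miRNAs holding at least 10 counts in every library, as the root mean square difference of log2 CPM after each profile was centred. All such profiles share the contrast between the groups, so likeness is given as a description. Nearest to miR-140-3p were miR-27a-3p, at a difference of 0.064, and miR-30c-5p, at 0.071. Nearest to miR-140-5p were miR-29a-3p, at 0.15, and miR-125b-2-3p, at 0.24. miR-455-5p had no equally close match among the 356, with miR-589-5p at 0.37 and miR-148a-5p at 0.41. The count filter left out scarcer miRNAs, and miR-455-5p held only 49, 19 and 48 counts in m7G-RIP. The effect of counting noise on these differences was not tested. For miR-455-3p the nearest were miR-210-3p, at 0.50, and again miR-29a-3p, at 0.67.

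Other miRNAs linked to cartilage or collagen were read beside the members. Of 17 such miRNAs, 12 were tested, of which 6 were called depleted, 2 enriched and 4 neither (edgeR adjusted p under 0.05), where 29.2% of all miRNAs tested were depleted and 23.5% enriched. The list had a median log2 ratio of -1.24 against -0.074 for all tested. The list was chosen with earlier results of these data known, so its calls and adjusted p-values are a description, not a test. The depleted ones were miR-9-5p, miR-22-3p, miR-27a-3p, miR-27b-3p, miR-29a-3p and miR-29b-3p. Within the list miR-29a-3p, which represses several collagen mRNAs, went from 488 ± 44.03 CPM in total RNA down to 92.4 ± 39.7 CPM (SD, n = 3), the lowest log2 ratio at -2.40 (adjusted p 0.000176 in edgeR). miR-483-5p rose from 6.17 ± 0.502 to 37.2 ± 6.21 CPM (SD, n = 3), the highest log2 ratio at 2.59 (adjusted p 0.000141 in edgeR). miR-1247-5p, which targets SOX9, rose too, by 2.38 on the log2 scale (adjusted p 0.00034 in edgeR). miR-145-5p, another miRNA that targets SOX9, and miR-675-3p were at 0 in every library, and miR-29c-3p was at the floor in m7G-RIP, with 0, 0 and 1 counts against 29, 21 and 11 in total RNA.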

How the data were processed

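Small RNA libraries of A549 METTL1 knockdown cells (3 of total RNA, 3 of m7G-RIP) were grouped and numbered by sample titles. The authors deposited raw read counts per mature miRNA. Reads had been trimmed with Trimmomatic, mapped to GRCh38 (STAR in the methods, Bowtie2 in the submitters' processing notes) and summarised with featureCounts on miRBase 22, allowing several mapping places, and the versions of these tools are not given in the sources used here. The culture text of the m7G-RIP samples describes medium for Caco-2, another line, while title and cell line label say A549. The study's protocol takes the input from decapped RNA, although the labels of the total RNA libraries do not mention decapping. No source used here says that replicates were separate cultures, so p-values measure only the spread between these libraries. Replicates differed beyond counting noise (chi-square per degree of freedom 22.2 to 112).

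Both tables were joined by miRNA name. Counts were fitted in edgeR 4.0.16 (R 4.3.3) with TMM scaling, the default expression filter and the robust quasi-likelihood test, without a replicate block. Benjamini-Hochberg adjustment ran over all 620 miRNAs tested (threshold 0.05), and the SE was the log2 ratio over the root of its F statistic. The code was tested on simulated counts with equal excess spread for every miRNA. The uneven spread of the real libraries was not covered. Log2 CPM used a prior count of 2, and the floor was 3 counts in every library of a group. Alternatives covered scaling, filters, DESeq2 1.42.0, the replicate block and single libraries left out.

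Members and lists were chosen with earlier results of these data known. Besides the members, the text names by rule the 2 nearest profiles of each, neighbours in arm shift, and the highest, lowest and floor-level members of the cartilage list. Other named miRNAs, those of the marker lists and the remaining cartilage list members, were chosen after their values were seen. Sequences are from RefSeq (2281 of 2588 names with 1 mature sequence), and hosts from GENCODE.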

Additional observations from a re-analysis of the deposited data

How the results depend on the processing

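The log2 ratios of the members, described and not tested here, were negative in every alternative run, from -2.80 to -1.77 for miR-140-5p, -2.34 to -1.51 for miR-140-3p, -4.81 to -3.83 for miR-455-5p and -3.85 to -2.44 for miR-455-3p. miR-455-3p could not be fitted with at least 10 counts in every library, which left 3 members. The number of miRNAs depleted ran from 133 of 359 tested (at least 10 counts in every library) to 245 of 778 (without m7G-RIP replicate 2). With no filter on low counts it was 219 of 1469. The number enriched ran from 107 of 658 (replicate 2 of both groups left out) to 216 of 620 (library size alone). Of the cartilage and collagen list, 5 to 7 were depleted and 2 to 4 enriched. It had 4 enriched when only library size was used for scaling and 4 when the top 10 miRNAs were taken out of it. In those runs 216 and 203 of all 620 miRNAs tested were enriched. The arm shift of miR-140 ran from -0.45 to 0.033, positive only without m7G-RIP replicate 1, and that of miR-455 from -2.11 to -0.42. Medians of miRNAs within 1 G were -0.59 for miR-140 and -0.71 for miR-455. Leaving out replicate 2 of both groups was chosen after the data were seen.

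Same-numbered libraries were not taken as pairs, since their deviations from the group means correlated at -0.043, -0.10 and 0.064. With the replicate block the log2 ratios were -2.40 for miR-140-5p, -2.06 for miR-140-3p, -4.45 for miR-455-5p and -3.24 for miR-455-3p. Depth limits the scarce arms, with 8 to 70 counts of miR-455-3p in m7G-RIP.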
